A study of Mus musculus with 24 samples.

Results

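A set of 42 genes of the lysosome and of autophagy was followed in mouse CD4 T cells through 2 rounds of activation. The genes were chosen by name: 9 lysosomal proteases, 5 glycosidases, 5 genes of lipid handling and its activators, 3 of the lysosomal membrane, 5 proton pump subunits, the transcription factors Tfeb and Tfe3, 4 genes of autophagy initiation, 3 of autophagy conjugation, and 6 of the ATG8 family with the cargo receptor Sqstm1. Each of the 42 symbols was found among the 23420 genes of the count tables, and each passed the filter on low counts that left 12584 genes for testing.

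All cells carried OT2Nur77GFP+/-: the OT-II transgenes encode a T cell receptor specific for a peptide of ovalbumin, and the Nur77 (Nr4a1) promoter drives a green fluorescent reporter. No group lacked either. There were 4 groups of 6 libraries each: naive T cells from spleens, naive T cells stimulated for 6 hours (activated naive), TH1 effector cells differentiated from naive cells over 5 days, and TH1 cells restimulated after that with antigen-pulsed macrophages for 6 hours (reactivated TH1). What stimulated the naive cells, the age and sex of the animals and the source of the macrophages are not in the labels. Nor do the labels tell whether libraries of 1 group stem from different animals or cultures, so p-values cover only their spread, which may be technical. No library of macrophages alone was analysed here. The time in culture differs between the naive and the TH1 arm, and whether the kind of stimulus does is not known.

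Lysosomes are acid compartments in which proteases, glycosidases and lipases break down material taken up from outside or delivered from the cytoplasm. In autophagy, a membrane grows around cytoplasmic cargo under the ULK1 and Beclin 1 complexes, is decorated with lipid-linked ATG8 proteins by a conjugation machinery that includes ATG5, ATG7 and ATG16L1, and fuses with a lysosome. The kinase complex mTORC1, which sits on the lysosome and is active in stimulated T cells, holds back ULK1 and the transcription factors TFEB and TFE3, which bind E-box sequences in the promoters of many lysosomal genes.

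Counts given to genes ranged from 18457653 to 34262645 per library. Libraries of numbers 1 to 3 and of numbers 4 to 6 of each group came from separate flow cells, called the first and second run below. Values are CPM, counts scaled by library size and a normalisation factor to a common total. T cell markers (Cd3e, Cd4 and 6 others) summed to at least 3025 CPM in each library. Of 20 macrophage markers, the summed level ran from 10.5 to 15.2 CPM in naive, 18.6 to 37.1 in activated naive, 6.41 to 10.9 in TH1 effector and 32.3 to 42.1 in reactivated TH1 libraries, and 7, 8, 8 and 2 of the 20 had no count in these groups. Over the 4 groups the highest summed level in a library was 20.9 CPM for B cell markers (TH1 effector, group median 4.35). It was 10.6 for dendritic cell, 2.31 for neutrophil and 109 for CD8 and NK cell markers (naive at most 31.1, reactivated TH1 67.0 to 109). Most of the CD8 and NK cell sum in reactivated TH1 cells came from Eomes (mean 54.1 CPM) and Klrk1 (28.8). Cd8b1 was at most 4.33 and Cd8a at most 1.68 CPM there. The naive sum was mostly Cd8b1 (mean 26.3 CPM). Zbtb46 (mean 7.71 CPM) made up most of the dendritic cell sum in reactivated TH1 cells. Bulk RNA does not separate fewer cells of a type from less RNA per cell.

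Summed over the 42 genes, the level was lowest in activated naive cells. It was 4033 to 4283 CPM in naive libraries (median 4087), 2276 to 2459 in activated naive (median 2335), 3664 to 4381 in TH1 effector (median 3952) and 2932 to 3051 in reactivated TH1 libraries (median 2962). The activated naive and the reactivated TH1 libraries each lay below every unstimulated library of their own arm. Per kilobase of exon, Psap (225 CPM per kb), Ctsd (133.7) and Ctss (123) had the highest mean levels in naive cells. After stimulation of naive cells the order was Lamp1 (77.0), Sqstm1 (70.7) and Psap (49.8). In TH1 effector cells Psap (145), Npc2 (107) and Ctsd (106) led, and in reactivated TH1 cells Ctsz (77.7), Ctsd (67.6) and Lamp1 (66.2).

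In activated naive against naive cells, 27 of the 42 genes were lower and 12 higher at an adjusted p under 0.05, against 40.5% lower and 41.3% higher of all genes tested. With a change of at least 2-fold, 16 were lower and 2 higher, where the background was 23.2% and 21.2%. The median log2 fold change of the 42 was -0.64, and that of all genes tested 0.0046. In reactivated TH1 against TH1 effector cells, 23 were lower and 14 higher (background 39.8% and 39.9%), 9 and 0 of them by at least 2-fold (19.5% and 13.3%), with a median of -0.58 and no rise above the 0.94 of Gusb. In TH1 effector against naive cells, 20 were lower and 16 higher (40.3% and 44.6%), 4 and 6 of them by at least 2-fold (16.4% and 25.2%), with a median of -0.12. That last split is near the background.

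**Figure D1:**
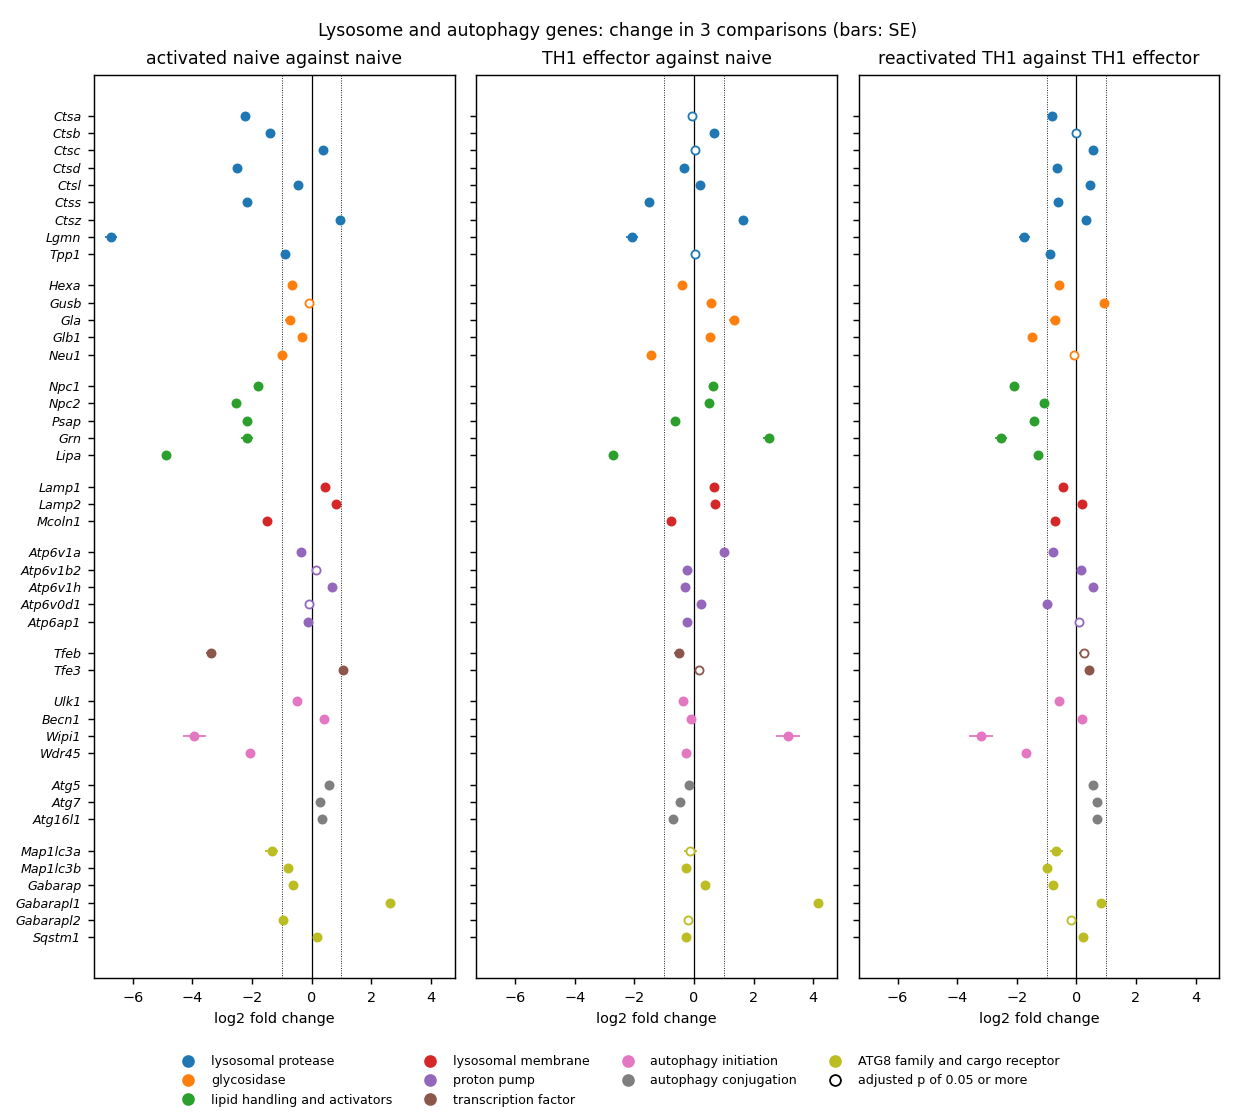
Log2 fold change (x axis) of each of the 42 genes (rows, grouped and coloured by role) in the 2 stimulations (left and right panel) and the differentiation to TH1 cells (middle); bars are the SE, open points have an adjusted p of 0.05 or more, and dotted lines mark a 2-fold change. The 5 lipid handling genes lie left of the 2-fold line in the left and the right panel, and the 3 conjugation genes lie right of 0 there.

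The same counts were taken within each run. In activated naive against naive cells, 26 members were lower in each run alone, and 10 and 12 were higher in the first and second run, where 38.1% and 35.9% of all genes tested in that run were lower and 38.1% and 38.5% higher. In reactivated TH1 against TH1 effector cells, 24 and 22 were lower (background 37.5% and 34.2%) and 15 and 11 higher (36.1% and 35.0%). In TH1 effector against naive cells, 16 and 12 were lower (36.8% and 35.8%) and 14 and 15 higher (43.1% and 40.8%).

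A group of 21 members was lower after stimulation in both arms, which is 21 of the 27 that fell in naive and of the 23 that fell in TH1 cells. Of all genes tested, 26.8% were lower in both. These 2 comparisons share no library. The 21 are Ctsa, Ctsd, Ctss, Lgmn, Tpp1, Hexa, Gla, Glb1, Npc1, Npc2, Psap, Grn, Lipa, Mcoln1, Atp6v1a, Ulk1, Wipi1, Wdr45, Map1lc3a, Map1lc3b and Gabarap. Another 11 were higher in both, where the share of all genes tested was 28.4%: Ctsc, Ctsz, Lamp2, Atp6v1h, Tfe3, Becn1, Atg5, Atg7, Atg16l1, Gabarapl1 and Sqstm1. Lamp1 rose in naive and fell in TH1 cells, and Ctsl did the opposite. Ctsb, Neu1, Atp6ap1, Tfeb and Gabarapl2 fell in naive cells and missed the threshold in TH1 cells, Gusb and Atp6v1b2 rose in TH1 cells alone among these 2 tests, and Atp6v0d1 fell in TH1 cells alone.

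Tfeb and Tfe3, the related activators of lysosomal genes, moved apart when naive cells were stimulated. Tfeb was at 14.5 to 20.4 CPM in naive libraries (median 15.8) and at 1.29 to 2.32 in activated naive ones (median 1.48). Its libraries did not overlap, and the log2 fold change was -3.37 (SE 0.16, adjusted p = 3.5e-16), a 10.3-fold fall. Tfe3 was at 31.0 to 38.1 CPM in naive (median 33.2) and 58.3 to 81.3 CPM in activated naive libraries (median 67.8), a rise of 1.04 (SE 0.076, adjusted p = 1.9e-12).

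In TH1 cells the pair differed less. Tfeb was at 9.46 to 14.8 CPM in TH1 effector libraries (median 11.3) and 8.66 to 21.4 after reactivation (median 13.5), groups that overlap widely (log2 fold change 0.25, SE 0.16, adjusted p = 0.099). In TH1 effector cells the 3 libraries of the first run were the higher ones, and the 2 highest reactivated libraries were also of that run. Tfe3 ran from 35.6 to 40.7 CPM in TH1 effector (median 37.4) and from 45.6 to 58.5 in reactivated libraries (median 50.8), a rise of 0.44 (SE 0.076, adjusted p = 1.1e-05). Against naive cells, Tfeb was lower in TH1 effector cells by a log2 fold change of -0.50 (adjusted p = 0.0018), which was -0.28 (adjusted p = 0.18) in the first run alone and -0.69 (adjusted p = 0.0013) in the second. The response of Tfeb to stimulation differed between TH1 and naive cells by 3.62 on the log2 scale (SE 0.23, adjusted p = 1.2e-13).

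The E-box that TFEB and its relatives bind in lysosomal promoters has CACGTG as its core. It was searched on both strands in RefSeq promoters of GRCm38.p6, from 250 bases before to 50 after each start, the same assembly as mm10. Of the 42 genes 35 had an entry (not Ctsb, Npc1, Atp6v1b2, Atp6v1h, Becn1, Atg16l1 or Map1lc3a), with 41 promoters. CACGTG was present for 12 of the 35 genes (34.3%), against 8.09% of all 27025 genes in the table and 12.0% of those tested here. The longer TCACGTG, which contains CACGTG, was present for 10 (28.6%, against 4.29% and 7.0%), and GTCACGTG, which contains both, for 9 (25.7%, against 2.55% and 4.86%). The 10 genes with TCACGTG are Atg7, Atp6v0d1, Atp6v1a, Ctsa, Ctsd, Gla, Glb1, Lamp1, Lgmn and Mcoln1. None of the 4 lipid handling genes with an entry had CACGTG in this window. These are matches of letters only.

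The bases around the first of these matches, counted from the 5′ end, are shown for the 6 genes with TCACGTG whose changes were largest, and for Lamp1 with all its 4 copies of CACGTG, which was added after its values were seen because it holds these copies and rose in activated naive cells. Capitals mark CACGTG with the adjoining bases of GTCACGTG on either strand, read 5′ to 3′ on the gene's strand. The positions are GRCm38 chr12:102439127-102439152 (minus strand) for Lgmn, chr7:142388056-142388077 (minus) for Ctsd, chr2:164833750-164833776 (plus) for Ctsa, chr9:114401019-114401044 (plus) for Glb1, chr8:3500437-3500462 (plus) for Mcoln1, chrX:134601217-134601242 (minus) for Gla and chr8:13159079-13159171 (plus) for Lamp1. The stretches of Lgmn and Ctsa belong to the second of their RefSeq starts. In GENCODE M21 that of Lgmn lies inside the gene but in no exon, and that of Ctsa in an exon. Those of Ctsd and Glb1 lie upstream of the gene, and that of Gla is upstream of Gla but in an exon of the neighbouring Hnrnph2 on the other strand. The last 6 bases of the Mcoln1 stretch and the last 11 of the Lamp1 stretch lie in the gene's own exon.
Lgmn: ggaatgtctGTCACGTGgtccatttt
Ctsd: tccccCACGTGACctgtatcca
Ctsa: gagcaaactGTCACGTGAtgcagatgc
Glb1: tgcttctgaGTCACGTGgcctacaga
Mcoln1: gtcgcgcttGTCACGTGttcagttca
Gla: agcgattgaTCACGTGAgcatctacg
Lamp1: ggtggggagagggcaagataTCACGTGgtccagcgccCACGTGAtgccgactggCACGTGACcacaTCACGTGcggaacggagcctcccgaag

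In the whole window, Ctsd, Ctsa, Mcoln1 and Gla hold 2 such matches each, and Lgmn and Glb1 hold 1. Of the 10 genes with TCACGTG, 7 were lower and 2 higher in activated naive against naive cells, with a median log2 fold change of -0.54, and 17 of the 25 without it were lower and 7 higher (median -0.66). In reactivated TH1 against TH1 effector cells, 9 of the 10 were lower (median -0.76), and 12 of the 25 (median -0.20). Over the 653 tested genes with TCACGTG the median was 0.062 in the first and 0.039 in the second of these comparisons, with 40.0% lower in each. Of the 8675 tested genes without it, 41% and 40.2% were lower. Whether these sites are bound was not tested.

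Among the 9 lysosomal proteases, 7 fell and 2 rose when naive cells were stimulated, 5 of the falls by at least 2-fold. Of all genes tested, 40.5% were lower and 41.3% higher, and 23.2% were lower by at least 2-fold. The fall of Lgmn, the asparagine-specific endopeptidase legumain, was the largest among the 42 genes. Lgmn was at 16.8 to 24.8 CPM in naive libraries (median 20.2) and at 0.0922 to 0.318 CPM in activated naive ones (median 0.171), a 106-fold fall (log2 fold change -6.73, SE 0.20, adjusted p = 5.9e-21). TH1 effector libraries held 3.79 to 5.36 CPM (median 5.09) and reactivated ones 1.001 to 1.74 (median 1.52), a fall of 1.74 on the log2 scale (SE 0.20, adjusted p = 5.2e-11). No 2 of the 4 groups overlapped for Lgmn. The fall was smaller in TH1 cells by 4.99 on the log2 scale (SE 0.28, adjusted p = 8.8e-15).

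Ctsd, the main aspartic protease of lysosomes, was at 289 to 334 CPM in naive libraries (median 318) and 50.5 to 57.2 CPM in activated naive ones (median 56.2), a 5.67-fold fall (log2 fold change -2.50, SE 0.077, adjusted p = 1.9e-20). In TH1 effector libraries it was at 232.7 to 259 CPM (median 250), and after reactivation at 117 to 192 (median 161.6). That fall of 0.65 on the log2 scale (SE 0.077, adjusted p = 1.1e-08) was smaller than in naive cells by 1.86 (SE 0.11, adjusted p = 3.9e-14). Ctsd overlaps a gene model on its own strand, so its counts are uncertain to that extent.

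Ctsa, the carboxypeptidase that also shields the sialidase Neu1 and the galactosidase Glb1, followed the same order. It was at 117 to 133.8 CPM in naive (median 124) and 20.97 to 32.4 CPM in activated naive libraries (median 26.7), a 4.67-fold fall (log2 fold change -2.23, SE 0.095, adjusted p = 8.0e-18). The TH1 libraries went from 106 to 130 CPM (median 119) to 60.5 to 72.6 CPM (median 66.3; log2 fold change -0.83, SE 0.095, adjusted p = 2.9e-09). TH1 effector and naive libraries overlapped for Ctsa.

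Ctss, a cysteine protease best known from antigen-presenting cells, was at 148 to 183 CPM in naive libraries (median 166.4) and 32.7 to 40.2 CPM in activated naive ones (median 38.2; log2 fold change -2.17, SE 0.064). TH1 effector cells held 54.0 to 64.2 CPM (median 57.9), 2.85-fold less than naive cells (log2 fold change -1.51, adjusted p = 3.3e-17), and reactivated ones 34.6 to 42.4 CPM (median 38.4; log2 fold change against TH1 effector -0.60, adjusted p = 4.2e-09). The stimulated groups of the 2 arms overlapped (log2 fold change 0.06, adjusted p = 0.42).

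Ctsz, a carboxypeptidase, went the other way and was higher at each step. It was at 23.9 to 33.1 CPM in naive (median 28.4), 51.6 to 59.6 in activated naive (median 56.1), 80.6 to 94.6 in TH1 effector (median 90.5) and 106 to 126 in reactivated libraries (median 109). The 4 groups did not overlap. The rise was 0.97 on the log2 scale in naive cells (SE 0.062, adjusted p = 2.1e-13) and 0.33 in TH1 cells (SE 0.062, adjusted p = 2.9e-05), and TH1 effector cells were 3.11-fold above naive ones (1.64, adjusted p = 6.0e-18).

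The cysteine protease Ctsb fell in naive cells from a mean of 151 CPM (SD 6.86, n = 6) to 58.0 CPM (SD 3.75), with no overlap (log2 fold change -1.38, SE 0.044). In TH1 cells it was 230 to 264 CPM before and 223 to 249 after reactivation, with a log2 fold change of -0.02 (adjusted p = 0.71). Its 3′ end overlaps Fdft1 on the other strand, so the counts are uncertain to the extent that strand was not used. Ctsc, the dipeptidyl peptidase that matures granzymes, rose by 0.39 in naive and 0.57 in TH1 cells (adjusted p = 8.5e-06 and 2.4e-08), from group means of 50.6 and 52.1 CPM. Tpp1 fell by 0.89 in either arm, and Ctsl, at 12.0 to 26.1 CPM over the group means, fell by 0.45 in naive and rose by 0.46 in TH1 cells.

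**Figure D2:**
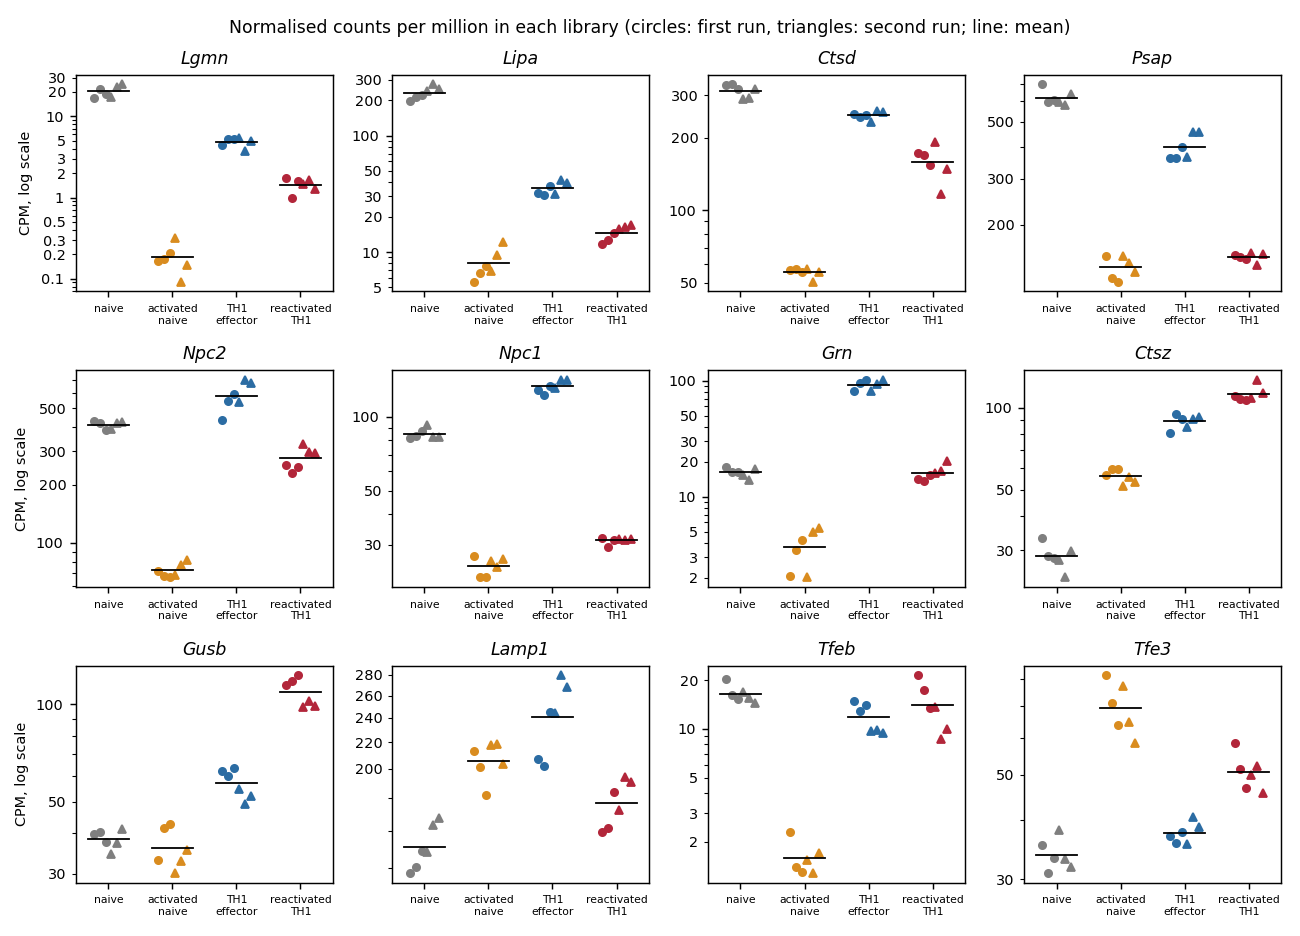
CPM on a log axis in each of the 24 libraries (circles first run, triangles second run, line the group mean) for 12 members. Lgmn lies between 0.0922 and 0.318 CPM in activated naive cells and above 16.8 in naive ones, while Ctsz is higher in each group than in the one before it.

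All 5 genes of lipid handling fell by at least 2-fold in both arms. Of all genes tested, 23.2% did in naive and 19.5% in TH1 cells. Lipa, the acid lipase that splits cholesteryl esters and triglycerides, was at 198 to 275 CPM in naive libraries (median 231) and 5.57 to 12.2 CPM in activated naive ones (median 7.18), a 29.5-fold fall (log2 fold change -4.88, SE 0.11, adjusted p = 1.5e-22). In TH1 effector cells it was at 30.8 to 41.7 CPM (median 34.2), 6.59-fold below naive cells, and after reactivation at 11.6 to 17.1 CPM (median 15.2; log2 fold change -1.28, SE 0.11, adjusted p = 1.7e-11). The fall was smaller in TH1 cells by 3.60 on the log2 scale (SE 0.16, adjusted p = 9.9e-17).

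Npc1 and Npc2 carry cholesterol out of the lysosome, Npc2 in the lumen and Npc1 in the membrane. Npc2 was at 387 to 430 CPM in naive libraries (median 420) and 66.3 to 81.8 CPM in activated naive ones (median 70.0), a 5.74-fold fall (log2 fold change -2.52, SE 0.082, adjusted p = 6.6e-20). Reactivation took it from 433 to 702 CPM (median 567.7) to 230 to 325 (median 274), a 2.12-fold fall (-1.08, SE 0.082, adjusted p = 2.3e-12). Npc1 went from 82.1 to 92.8 CPM (median 83.0) to 22.2 to 26.9 CPM (median 25.1) in naive cells, a change of -1.79 (SE 0.044). In TH1 cells Npc1 went from 123 to 141 CPM (median 133) to 29.6 to 31.9 CPM (median 31.6), a 4.25-fold fall (-2.09, SE 0.044, adjusted p = 4.2e-21). Npc2 thus fell less in TH1 than in naive cells (difference 1.44, SE 0.12, adjusted p = 1.8e-11). Npc1 fell slightly more (-0.30, SE 0.062, adjusted p = 0.00074), a call lost in the first run alone (-0.25, adjusted p = 0.072).

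Psap, the precursor of the saposins that help enzymes reach sphingolipids, was at 580 to 696 CPM in naive libraries (median 601) and 120 to 151 CPM in activated naive ones (median 136), a 4.53-fold fall (log2 fold change -2.18, SE 0.069, adjusted p = 5.9e-20). TH1 effector libraries held 361 to 456 CPM (median 382) and reactivated ones 139 to 155 (median 151), a 2.67-fold fall (-1.42, SE 0.069, adjusted p = 8.9e-16). The stimulated groups of both arms overlapped.

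Grn, the precursor of progranulin, a secreted and lysosomal glycoprotein, stood out by its level in TH1 effector cells. It was at 14.0 to 18 CPM in naive (median 16.3), 2.03 to 5.39 in activated naive (median 3.87), 80.9 to 102 in TH1 effector (median 94.1) and 13.6 to 20.4 in reactivated libraries (median 15.6). TH1 effector cells were 5.68-fold above naive ones (log2 fold change 2.50, SE 0.20, adjusted p = 1.6e-13), and reactivation brought a 5.79-fold fall (-2.53, SE 0.20, adjusted p = 2.0e-13). The 2 responses to stimulation differed by -0.38 (SE 0.28, adjusted p = 0.14).

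Macrophages express many of these genes at high levels, and the reactivated TH1 cells had been cultured with them. Cells were sorted before RNA was extracted, per the labels, which do not give the gate. The macrophage gene Lyz2 was at 4.58 to 7.23 CPM in reactivated TH1 libraries and at most 0.463 CPM in the others, Csf1r at 0.355 to 1.11 and at most 0.178, and C1qb at 1.001 to 1.95 and at most 0.098. Cybb, at 3.66 to 5.56 CPM after reactivation, already reached 3.09 CPM in a TH1 effector library, and Apoe was highest in activated naive libraries (16.8 to 35.7 CPM against 13.5 to 21.2). Of the 11 macrophage markers that could be tested, 7 were higher and 1 lower in reactivated TH1 against TH1 effector cells. The part of macrophage RNA in the values of reactivated TH1 cells was not tested.

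Of the glycosidases, which trim sugars from glycoproteins and glycolipids, 4 of 5 fell in activated naive cells and none rose. Of all genes tested, 40.5% were lower and 41.3% higher there. Only the fall of Neu1 reached 2-fold (2.004-fold). Gusb, the glucuronidase, was the glycosidase that did not pass the threshold. It was at 34.4 to 41.2 CPM in naive (median 38.7) and 30.2 to 42.6 in activated naive libraries (median 34.3), which overlap (log2 fold change -0.10, adjusted p = 0.14). In TH1 effector libraries it was at 49.2 to 63.4 CPM (median 57.4) and in reactivated ones at 97.7 to 123 (median 108), a rise of 0.94 (SE 0.060, adjusted p = 3.9e-13) that was present in both runs (0.90 and 0.96).

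Glb1, the beta-galactosidase, fell most among the glycosidases of TH1 cells. It was at 51.1 to 60.3 CPM before (median 58.0) and 17.8 to 22.3 CPM after reactivation (median 20.4), a 2.84-fold fall (log2 fold change -1.50, SE 0.057, adjusted p = 4.0e-17). In naive cells it went from 36.8 to 42.3 CPM (median 39.4) to 28.7 to 34.7 CPM (median 30.9; -0.33, SE 0.057). The difference between the arms was -1.17 (SE 0.080, adjusted p = 1.1e-11). Tmppe shares exons with Glb1 on the same strand and had mean levels of 39.2 to 60.0 CPM, so reads may have been split between them.

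Neu1, the lysosomal sialidase, was lower in TH1 effector than in naive cells, at 23.9 to 34.0 CPM (median 28.3) against 68.0 to 87.9 (median 75.6; 2.70-fold, log2 fold change -1.43, SE 0.067, adjusted p = 4.9e-16). It fell to 35.4 to 41.7 CPM in activated naive libraries (median 38.0), and reactivation left it at 24.2 to 29.5 CPM (median 26.8; -0.08, adjusted p = 0.27). Gla, the alpha-galactosidase, was higher in TH1 effector cells, at 14.2 to 19.0 CPM (median 15.8) against 5.55 to 9.18 in naive ones (median 5.88; 2.52-fold, 1.33, SE 0.15, adjusted p = 2.8e-09). Gla fell by about the same amount in either arm (-0.73 and -0.72). Hexa, a hexosaminidase chain, fell by 0.66 in naive and 0.57 in TH1 cells.

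The membrane genes did not share a direction. Lamp1, an abundant glycoprotein of the lysosomal membrane that also reaches the surface of degranulating cells, was at 137.7 to 167.6 CPM in naive libraries (median 149) and 182 to 218 in activated naive ones (median 208), a rise of 0.45 (SE 0.058, adjusted p = 1.0e-07). In TH1 cells it fell from 202 to 279 CPM (median 244) to 160 to 194 (median 178; -0.44, SE 0.058, adjusted p = 1.6e-07). The responses differed by -0.89 (SE 0.082, adjusted p = 6.0e-10). Lamp2 rose by 0.81 in naive cells (adjusted p = 6.0e-10). In TH1 cells its rise of 0.17 just passed the threshold (adjusted p = 0.045), with overlapping groups, and was lost under other scalings (0.12, adjusted p = 0.17 with DESeq2's size factors). Mcoln1, the calcium channel TRPML1, fell in naive cells from 44.7 to 53.0 CPM (median 49.7) to 16.3 to 19.4 CPM (median 17.4; -1.50, SE 0.041) and in TH1 cells by 0.73.

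The proton pump acidifies the lysosome, and its 5 subunits changed little in naive cells, none by 2-fold. Atp6v1h rose by 0.68 (adjusted p = 2.9e-07), Atp6v1a fell by 0.35 (adjusted p = 2.9e-05), and Atp6ap1 fell by 0.11 (adjusted p = 0.041), a call lost in either run alone and with the replicate number as a block (-0.11, adjusted p = 0.056). Atp6v0d1, of the membrane sector, was at 52.7 to 57.2 CPM in naive and 44.0 to 60.9 in activated naive libraries, which overlap, and it fell in TH1 cells from 61.9 to 67.8 CPM (median 65.0) to 28.3 to 37.5 (median 32.5; -0.99, SE 0.076, adjusted p = 5.6e-12). Atp6v1a, the catalytic subunit, was higher in TH1 effector than in naive cells by 1.01 (SE 0.064, adjusted p = 1.5e-13), at 95.6 to 107 CPM against 43.9 to 55.1, and fell by 0.78 on reactivation. Atp6v1b2 passed the threshold in reactivated TH1 cells (0.17, adjusted p = 0.030), which was lost with DESeq2's size factors (0.11, adjusted p = 0.14).

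Of the 4 initiation genes, Becn1 rose and the other three fell after stimulation in both arms. Wdr45, a phosphoinositide-binding protein needed for membrane growth, was at 45.4 to 53.2 CPM in naive libraries (median 48.2) and 8.52 to 15.0 CPM in activated naive ones (median 11.5; log2 fold change -2.07, SE 0.11, adjusted p = 1.5e-15). In TH1 cells it went from 34.1 to 44.7 CPM (median 41.6) to 11.7 to 14.3 CPM (median 12.4), a 3.22-fold fall (-1.69, SE 0.11, adjusted p = 1.6e-13). Wipi1, a relative of Wdr45, was rare: 0.329 to 0.712 CPM in naive libraries, at most 0.098 in activated naive ones (4 counts over 6 libraries), 2.65 to 5.12 in TH1 effector (707 counts) and 0.235 to 0.632 in reactivated ones. Its TH1 effector libraries lay above those of each other group (log2 fold change against naive 3.15, SE 0.39, adjusted p = 3.3e-11). Ulk1, the initiating kinase, fell by 0.50 in naive cells (overlapping groups, adjusted p = 7.4e-06) and by 0.60 in TH1 cells (adjusted p = 7.5e-07). Becn1 rose by 0.41 and 0.19 (adjusted p = 4.4e-10 and 0.00014).

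The conjugation genes moved as a trio, by less than 2-fold. Atg5, whose product is joined to ATG12, was at 36.2 to 41.9 CPM in naive and 52.2 to 62.5 in activated naive libraries, and at 32.2 to 37.0 in TH1 effector and 48.7 to 54.3 in reactivated ones (rises of 0.58 and 0.57, adjusted p = 7.6e-11 and 1.8e-10). Atg7, the activating enzyme, rose by 0.29 and 0.71 (adjusted p = 0.00069 and 1.6e-09), and Atg16l1, which places the conjugate on the membrane, by 0.35 and 0.71 (adjusted p = 3.1e-06 and 1.5e-11). The rise of Atg7 in naive cells was lost without scaling beyond library size (0.12, adjusted p = 0.15) and in the first run alone (0.19, adjusted p = 0.099). TH1 effector cells were below naive cells for each of the 3, by log2 fold changes of -0.17, -0.45 and -0.70, a comparison that shares its groups with those above.

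**Figure D3:**
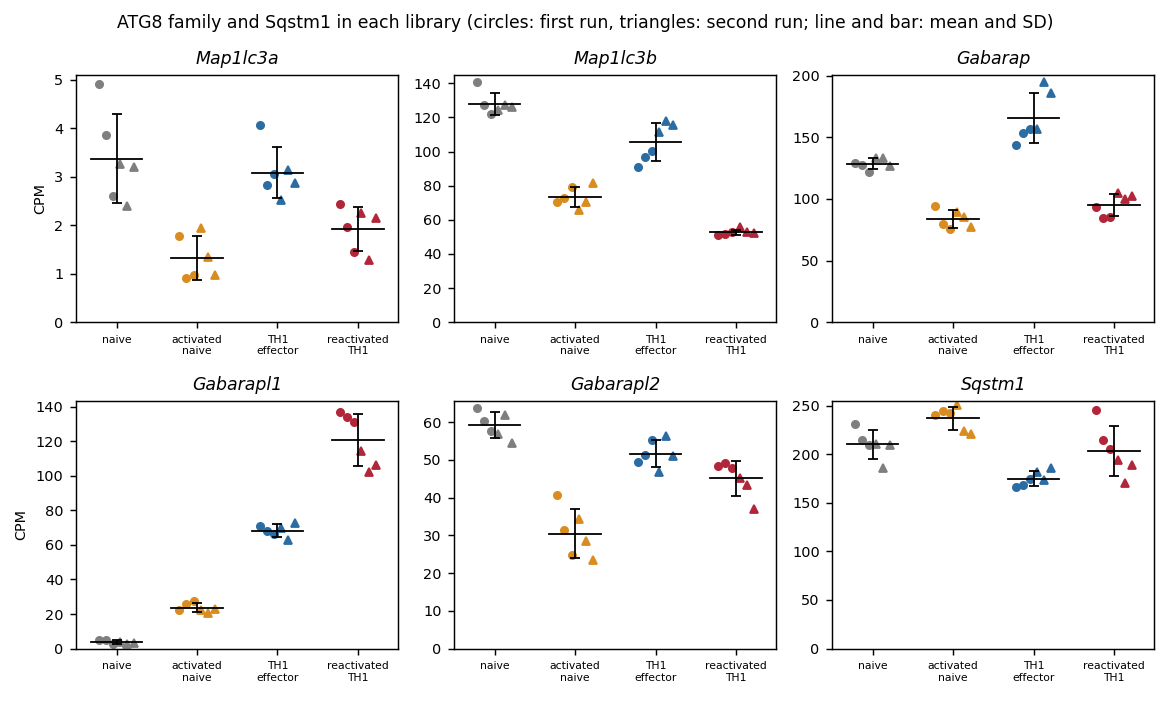
CPM in each library (circles first run, triangles second run; line and bar are the group mean and SD, n = 6) for the 5 ATG8 genes and Sqstm1. Gabarapl1 rises from a median of 3.68 in naive to 123 CPM in reactivated TH1 cells, while Map1lc3a, Map1lc3b and Gabarap are lower in each stimulated group than in its own unstimulated group.

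ATG8 proteins are the ubiquitin-like tags of autophagic membranes, of the LC3 (Map1lc3a, Map1lc3b) and GABARAP (Gabarap, Gabarapl1, Gabarapl2) branches. Gabarapl1 set itself apart from the other four. It was at 2.83 to 5.13 CPM in naive (median 3.68), 20.8 to 27.7 in activated naive (median 22.6), 62.8 to 72.5 in TH1 effector (median 68.8) and 102 to 137 CPM in reactivated libraries (median 123). The groups did not overlap. It rose 6.14-fold in activated naive cells (log2 fold change 2.62, SE 0.11, adjusted p = 3.8e-18), was 17.9-fold higher in TH1 effector than in naive cells (4.16, SE 0.11, adjusted p = 1.2e-21) and rose by 0.81 on reactivation (SE 0.11, adjusted p = 4.7e-09). Its rise was smaller in TH1 than in naive cells (-1.81, SE 0.16, adjusted p = 1.0e-11). An antisense gene that overlaps it, 1700101I11Rik, was at 1.16 CPM or less in each group mean.

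The other ATG8 genes did not rise against the unstimulated group of their own arm. Gabarap was somewhat higher in TH1 effector than in naive cells (log2 fold change 0.36, adjusted p = 8.7e-06). Map1lc3b, whose lipid-linked protein is the usual marker of autophagosomes, was at 122 to 141 CPM in naive libraries (median 127). In activated naive libraries its RNA was at 65.6 to 81.5 CPM (median 71.7, log2 fold change -0.80, SE 0.059, adjusted p = 3.0e-12). In TH1 cells it went from 91.2 to 118 CPM (median 106) to 51.4 to 55.6 (median 52.5; -0.996, SE 0.059, adjusted p = 8.0e-14). Gabarap went from 122 to 133 CPM (median 128) to 75.7 to 94.2 (median 82.7) in naive cells and from 144 to 195 (median 156.7) to 84.3 to 105 (median 96.9) in TH1 cells, falls of 0.62 and 0.80 (adjusted p = 1.1e-09 and 1.2e-11). Both were separate from their unstimulated libraries in each arm.

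Gabarapl2 fell in naive cells from 54.3 to 63.6 CPM (median 59.0) to 23.6 to 40.6 (median 29.9; -0.96, SE 0.099, adjusted p = 6.5e-10). In TH1 cells it was at 46.7 to 56.2 CPM (median 51.0) and 36.9 to 49.2 (median 46.5), a log2 fold change of -0.20 with an adjusted p of 0.054, which passed with DESeq2's size factors (-0.26, adjusted p = 0.014) and with the replicate number as a block (-0.20, adjusted p = 0.037). Map1lc3a was rare, with 2.40 to 4.90 CPM in naive (median 3.23), 0.909 to 1.95 in activated naive (median 1.16), 2.53 to 4.07 in TH1 effector (median 2.96) and 1.29 to 2.43 in reactivated libraries (median 2.06). Its falls were 1.34 (SE 0.22, adjusted p = 3.5e-06) and 0.68 (SE 0.22, adjusted p = 0.0047), the latter -0.57 with an adjusted p of 0.088 in the second run alone.

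Per kilobase of exon, the ATG8 order changed between groups. In naive cells Gabarap (69.7 CPM per kb) was above Gabarapl2 (25.4), Map1lc3b (17.0), Map1lc3a (2.86) and Gabarapl1 (1.90). In reactivated TH1 cells Gabarapl1 (60.0) and Gabarap (51.6) were the highest, above Gabarapl2 (19.4), Map1lc3b (7.03) and Map1lc3a (1.63). These are group means on the length-scaled level, and the union of exons of GENCODE M21 need not be the transcript used in these cells.

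Sqstm1, the receptor p62 that brings ubiquitin-tagged cargo to ATG8 proteins, was among the most abundant members and changed little. It was at 186 to 231.5 CPM in naive (median 210), 220 to 251 in activated naive (median 241.5), 166.2 to 186 in TH1 effector (median 174) and 170 to 245 in reactivated libraries (median 200). Stimulated and unstimulated libraries overlapped in both arms. The rises of 0.17 (adjusted p = 0.011) and 0.21 (adjusted p = 0.0028) were lost without scaling beyond library size (0.0062, adjusted p = 0.92, and 0.088, adjusted p = 0.13).

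Between the 2 stimulated groups, reactivated TH1 cells had more of 20 members and less of 14 than activated naive cells, where 43.4% and 36.4% of all genes tested were called. By at least 2-fold, 12 were higher and 0 lower (background 23.0% and 11.0%), and the most negative log2 fold change was -0.68 (Atp6v0d1). Proteases made up 5 of those 12. Ctsb was at 223 to 249 CPM in reactivated TH1 against 52.3 to 62.5 in activated naive libraries (log2 fold change 2.05, SE 0.044), and Ctsd was higher by 1.52 and Ctsa by 1.32. Tfeb was higher by 3.12 (SE 0.16, adjusted p = 4.0e-15) and Gabarapl1 by 2.35 (SE 0.11). Of the 11 macrophage markers tested, 8 were also higher and 2 lower in reactivated TH1 than in activated naive cells. Apoe had a lower mean in reactivated TH1 cells (17.7 against 25.4 CPM). The part of macrophage RNA in these differences was not tested.

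Taken as the TH1 response minus the naive response, the difference was positive for 18 members and negative for 11 (background 34.3% and 33.7%), by at least 2-fold for 9 and 2 (15.0% and 15.4%). The 9 are Ctsa, Ctsb, Ctsd, Ctss, Lgmn, Gusb, Npc2, Lipa and Tfeb, of which 5 are proteases, and the 2 are Glb1 and Gabarapl1. For Lgmn, Lipa, Npc2, Ctsd, Ctsa and Ctss the positive value stands for a smaller fall in TH1 cells, from a starting level that was lower there for each but Npc2, where it was higher, and Ctsa, where the adjusted p was 0.41. The arms differ in time in culture as well as in cell state, and perhaps in stimulus, and these cannot be told apart.

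**Figure D4:**
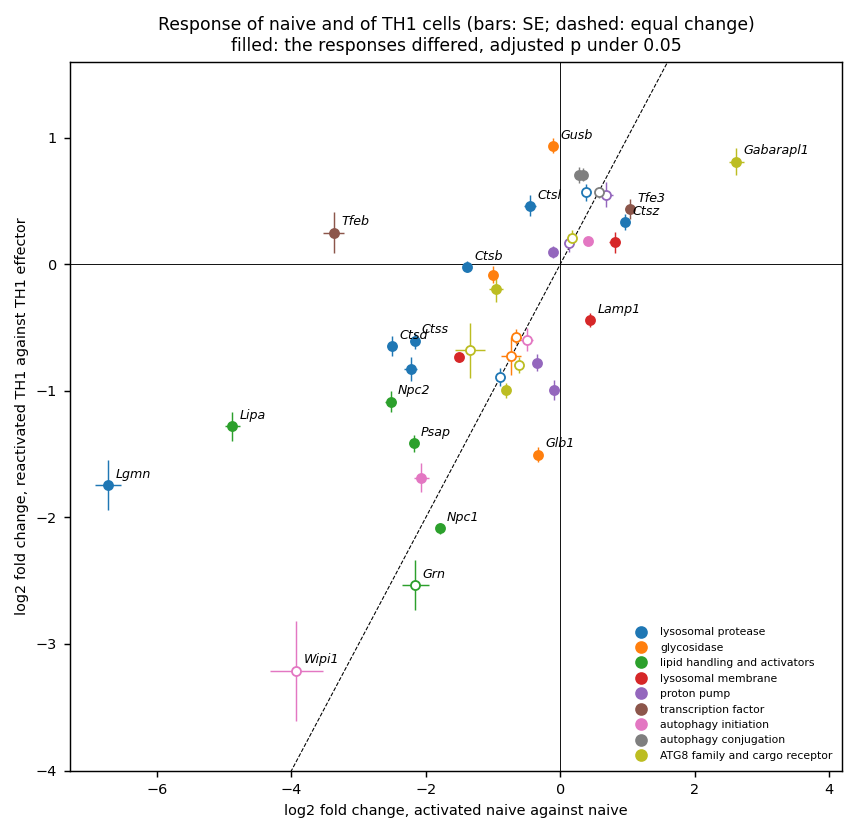
Log2 fold change in activated naive against naive cells (x axis) and in reactivated TH1 against TH1 effector cells (y axis) for the 42 genes, coloured by role, with SE bars; the dashed line marks equal change and filled points differ between the arms at an adjusted p under 0.05. Lgmn, Lipa and Tfeb lie farthest above the line and Gabarapl1 farthest below it.

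Other genes of the same pathways, 156 in 8 lists with 152 tested, were read beside the members. In activated naive against naive cells 88 were lower and 48 higher (57.9% and 31.6%, against 40.5% and 41.3% of all genes tested). In TH1 effector against naive cells 85 were lower and 51 higher (55.9% and 33.6%, against 40.3% and 44.6%). In reactivated TH1 against TH1 effector cells 84 were lower and 35 higher (55.3% and 23.0%, against 39.8% and 39.9%). These shares of all genes are the background for each list below. The medians of the 152 genes were -0.37, -0.29 and -0.30 on the log2 scale. The genes named below had the largest called rise or fall of their list among genes at 10 CPM or more in the higher group, so a rarer gene may have changed more.

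Other lysosomal enzymes fell most often. Of 33 tested, 26 were lower and 4 higher in activated naive cells, 20 of the falls by at least 2-fold, and 26 were lower and 2 higher in reactivated TH1 cells, 15 of them by at least 2-fold. Acp5, the tartrate-resistant acid phosphatase, fell most in both among genes at 10 CPM or more, from a mean of 184 to 2.26 CPM in naive cells (log2 fold change -6.37, SE 0.15, adjusted p = 4.8e-22) and from 77.5 to 9.78 CPM in TH1 cells (-2.99, SE 0.15, adjusted p = 1.1e-16). The largest rises were Galc, a galactosylceramidase, in naive cells (9.12 to 12.3 CPM, 0.43, lost in the second run alone at 0.35 and adjusted p = 0.14) and Ctsw, a cathepsin of cytotoxic cells, in TH1 cells (48.1 to 68.6 CPM, 0.51). Between TH1 effector and naive cells 16 were higher and 13 lower in the former, led by the carboxypeptidase Scpep1 (1.96 to 53.3 CPM, 4.76) and by Ctse, an aspartic protease (59.8 to 7.67 CPM, -2.96).

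The sorting list, the machinery that carries new enzymes to the lysosome, went the other way in naive cells: 8 of 9 rose and Gga1, an adaptor, fell slightly (-0.21, SE 0.048). M6pr, the cation-dependent mannose 6-phosphate receptor, rose from a mean of 193 to 928 CPM in naive cells (2.27, SE 0.044, adjusted p = 5.2e-23) and from 191 to 763 CPM in TH1 cells (2.001, SE 0.044, adjusted p = 6.3e-21), where 4 of 9 rose and 3 fell. TH1 effector cells had 3 of them higher and 4 lower than naive cells, with Gnptab, a chain of the enzyme that makes the mannose 6-phosphate tag, at 135 against 71.5 CPM (0.92) and Gga3 at 61.8 against 107 CPM (-0.79).

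Of 24 other membrane proteins tested, 17 were lower and 6 higher in activated naive and 12 lower and 7 higher in reactivated TH1 cells. Slc29a3, a nucleoside transporter of lysosomes, rose from 42.4 to 321 CPM in naive cells (2.92, SE 0.083, adjusted p = 3.6e-21) and from 26.4 to 234.2 CPM in TH1 cells (3.15, SE 0.083, adjusted p = 1.3e-20). The calcium channel gene Tpcn1 fell in naive cells from 106 to 10.4 CPM (-3.34), and the cystine exporter Ctns in TH1 cells from 14.1 to 3.78 CPM (-1.89). Against naive cells, 16 were lower and 4 higher in TH1 effector cells, with Slc15a3, a peptide and histidine transporter, at 10.8 against 0.0791 CPM (6.91, SE 0.47) and Slc36a1, an amino acid transporter, at 18.5 against 56.6 CPM (-1.61).

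Of 10 other proton pump subunits tested, 6 rose and 3 fell in activated naive cells, and 5 rose and 2 fell in reactivated TH1 cells. Atp6v0b had the largest rise in both (1.06 and 0.96) and Atp6v1d the largest fall (-1.36 and -0.90). Of these, 6 were higher in TH1 effector than in naive cells, led by Atp6v0e (0.66), and 3 lower, led by Atp6ap2 (-0.39). The list on mTORC1 and TFEB control was split and near the background in the 2 stimulations. In activated naive cells 12 of 27 were higher and 9 lower (44.4% and 33.3%, against 41.3% and 40.5%). In reactivated TH1 cells 11 were higher and 12 lower (40.7% and 44.4%, against 39.9% and 39.8%). Fnip2, a partner of folliculin, rose in naive cells from 0.678 to 16.8 CPM (4.66, SE 0.21, adjusted p = 5.4e-17), and Sesn1, a stress-induced inhibitor of mTORC1, fell from 152 to 23.0 CPM (-2.73, SE 0.17). In TH1 cells Rptor, a core subunit of mTORC1, rose from 37.7 to 84.1 CPM (1.16) and Rragd, a GTPase that tethers it to the lysosome, fell from 33.1 to 11.6 CPM (-1.50). Against naive cells, 10 of these 27 were higher and 16 lower in TH1 effector cells (37.0% and 59.3%, against 44.6% and 40.3%). Sesn2 was at 45.9 against 3.83 CPM there (3.58) and Sesn1 at 30.8 against 152 CPM (-2.31).

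**Figure D5:**
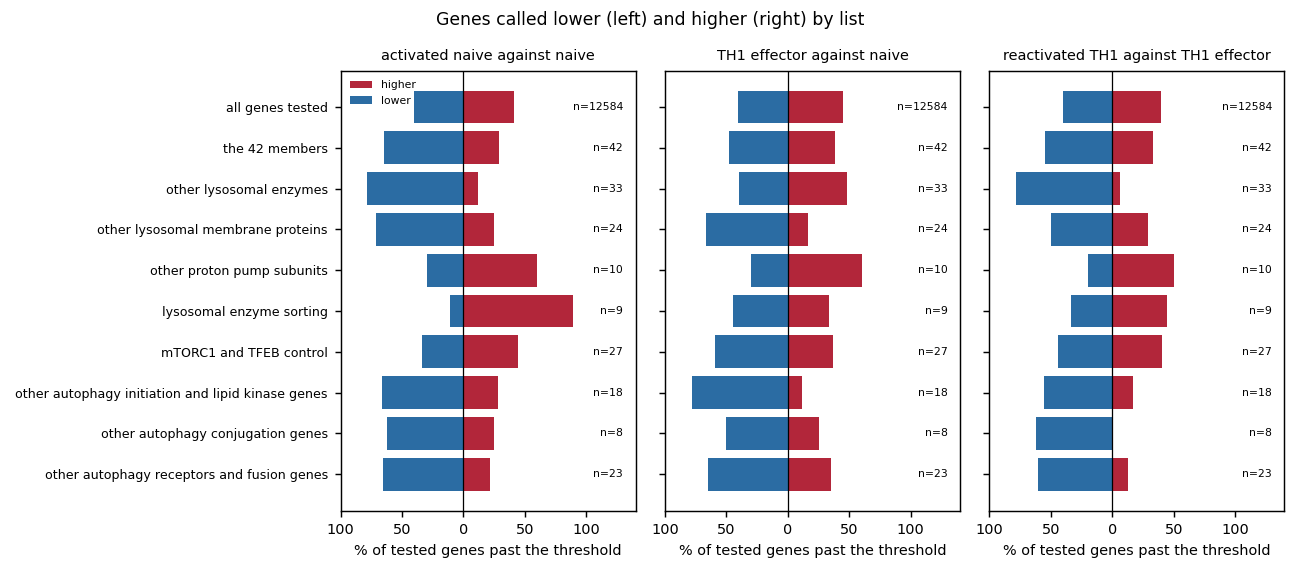
Percent of the tested genes of each list (rows) called lower (left of 0) and higher (right of 0) at an adjusted p under 0.05 in 3 comparisons, with n the number tested and all 12584 genes in the top row. The bars of other lysosomal enzymes reach farthest to the left in the left and right panel (26 of 33 in each), and the sorting list reaches farthest to the right in the left one (8 of 9).

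The remaining autophagy genes mostly fell after stimulation. Of 18 other initiation and lipid kinase genes, 12 fell and 5 rose in naive cells and 10 fell and 3 rose in TH1 cells. Atg9a, which supplies membrane vesicles, fell from 60.1 to 5.91 CPM in naive cells (-3.34, SE 0.11, adjusted p = 2.8e-20) and from 47.7 to 13.4 CPM in TH1 cells (-1.82, SE 0.11). Vmp1, a membrane protein of autophagosome formation, rose in naive cells from 32.8 to 192 CPM (2.54, SE 0.069, adjusted p = 3.4e-21), and the largest rise in TH1 cells was that of Wdr45b (0.27). In TH1 effector against naive cells 14 were lower, led by Ulk2 (-1.07), and 2 higher, led by Vmp1 (1.58).

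Of 8 other conjugation genes, 5 fell and 2 rose in naive cells, Atg4a most downward (-1.24) and Atg4b, a protease that trims ATG8 proteins, most upward (0.74). In TH1 cells 5 fell, Atg16l2 most (-0.75), and the other three did not pass the test. In TH1 effector against naive cells 4 were lower, led by Atg4a (-0.52), and 2 higher, led by Atg16l2 (0.48). Of 23 other receptors and fusion genes, 15 fell and 5 rose in naive cells, with Calcoco1 from 75.6 to 6.00 CPM (-3.66, SE 0.22) and Rab7, a GTPase of late endosomes, at 0.42. In TH1 cells 14 fell and 3 rose, with Vps18 at 0.47. Bnip3, a receptor for removal of mitochondria, was at 5.53 CPM in naive and 201 in TH1 effector cells (5.18, SE 0.25, adjusted p = 3.3e-14) and fell to 9.91 CPM on reactivation (-4.33, SE 0.25, adjusted p = 4.2e-13). Against naive cells, 8 of the 23 were higher and 15 lower in TH1 effector cells, Ccpg1 most (-1.41).

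Exons of 16 members overlap another gene in GENCODE M21, 13 of them a gene on the other strand and 4 a gene on the same strand. Since the sources used here do not give the strand setting of the counting, values of Ctsa, Ctsb, Ctsl, Ctsz, Hexa, Npc1, Grn, Lamp1, Atp6v1h, Becn1, Map1lc3b, Gabarapl1 and Sqstm1 are uncertain to that extent. Most of the partners found in the tables were at 7.09 CPM or less in each group mean, and those above were Fdft1 beside Ctsb (33.9 to 93.5 CPM), Nelfcd beside Ctsz (45.4 to 55.7) and Tmppe within Glb1. Beside the same-strand partners, Ctsd, Ctsl, Glb1 and Wdr45 are uncertain as well.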

How the data were processed

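Bulk RNA sequencing of sorted CD4 T cells gave 24 libraries, 6 for each of 4 groups. The deposited files hold whole-number read counts per gene, 1 table per library, not normalised. Per the labels' protocols, sorted cells were frozen in a phenol reagent and libraries were made with a stranded kit. Per the submitters' processing notes, STAR, HTSeq, DESeq2 and the build mm10 were used; roles, versions, annotation and strand setting: not given in the sources used here. Reads without a counted feature (13.2 to 24.5% per library), ambiguous reads (0.706 to 1.25%) and reads aligned to more than 1 place (5.41 to 7.83%) were deposited as separate lines and stayed out of library sizes and tests.

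Groups came from the labels, and the run from the flow cell that each file's name carries. No 2 libraries of a group were alike within sampling noise (lowest chi-square per degree of freedom 8.90). In R 4.3.3, edgeR 4.0.16 (limma 3.58.1, statmod 1.5.0) filtered genes with filterByExpr, scaled libraries with TMM (factors 0.924 to 1.07) and fitted 1 robust quasi-likelihood model to the 24 libraries, with terms for group and for run. Libraries of the same number in different groups deviated together (mean correlation of deviations from group means 0.21, against -0.0090 for other numbers of the same run), in each of 6 pairs above 0.1 between every 2 groups but naive and activated naive (5 of 6, lowest 0.075). The labels give each number to 1 library of each group but do not say what it stands for. The model has no term for it, and the fit with it as a block is given where it changed a call. Adjusted p-values are from its quasi-likelihood test with Benjamini-Hochberg adjustment over the 12584 genes tested, in each of 5 comparisons, with a threshold of 0.05. Each SE comes from log2 CPM (prior count 0.5), for the 2 group means compared or the 4 of the difference of responses. Its spread is pooled over the 4 groups, on 19 residual degrees of freedom. A gene therefore has the same SE in each comparison of 2 groups, also where their spreads differ. The procedure was also run on simulated counts drawn from the naive group means, with some genes changed in activated naive libraries. They held no run effect and no shared deviation of a number, so the simulation does not bear on these. The alternatives were DESeq2's size factors, library size alone, no filter, at least 10 CPM in 6 libraries, the Wald test of DESeq2 1.42.0, a block on the replicate number, no run term, the compared groups alone, each run alone, leaving out each number, and leaving out numbers 5 and 6.

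The 42 members and all gene lists were chosen with earlier results of these data known. All members are described by role. Values for each group are given for the 8 largest called changes (higher group at 10 CPM or more) in each of the first 3 comparisons, for the ATG8 family, Sqstm1, Tfeb and Tfe3, and for further members chosen after their values were seen. From each of 8 lists of other pathway genes the largest called rise and fall, with the higher group at 10 CPM or more, are named. Markers of macrophages, T cells, B cells, dendritic cells, neutrophils, and CD8 and NK cells were read as well. Gene coordinates and exon lengths are from GENCODE M21 and promoters from RefSeq (GRCm38.p6). Protein sequences were not used here.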

Additional observations from a re-analysis of the deposited data

Results flagged for a closer look

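Within each group of 6 libraries, 10 sets of values, of 1 set for each of the 42 members in each of the 4 groups, had a library far from the rest by Dixon's criterion, where chance gives about 1 in 20. In reactivated TH1 cells these were number 5 for Ctsb (222.7 CPM, the rest 240.7 to 249.3) and for Ctsz (126 CPM, the rest 106 to 113), number 2 for Npc1 (29.6 CPM, the rest 31.3 to 31.9) and number 4 for Ulk1 (31.1 CPM, the rest 34.7 to 35.2). In activated naive cells they were number 5 for Ctsd (50.5 CPM, the rest 55.5 to 57.2) and number 6 for Wipi1 (0.098 CPM, the rest 0 to 0.035). Among naive cells they were number 1 for Gla (9.18 CPM, the rest 5.55 to 6.48) and Map1lc3b (140.7 CPM, the rest 122 to 127.4) and number 5 for Ulk1 (53.2 CPM, the rest 65.9 to 72.4), and among TH1 effector cells number 4 for Ctsl (17.0 CPM, the rest 19.1 to 19.6).

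The response to stimulation differed between TH1 and naive cells for 29 members by the test of the difference itself. Values are the TH1 response minus the naive response on the log2 scale. Among proteases they were 4.99 for Lgmn, 1.86 for Ctsd, 1.56 for Ctss, 1.40 for Ctsa, 1.36 for Ctsb, 0.91 for Ctsl and -0.64 for Ctsz. Glycosidases gave 1.04 for Gusb, 0.92 for Neu1 and -1.17 for Glb1, and lipid handling genes 3.60 for Lipa, 1.44 for Npc2, 0.77 for Psap and -0.30 for Npc1. Membrane and pump genes gave 0.77 for Mcoln1, 0.21 for Atp6ap1, -0.43 for Atp6v1a, -0.64 for Lamp2, -0.89 for Lamp1 and -0.90 for Atp6v0d1. The transcription factors Tfeb and Tfe3 gave 3.62 and -0.60. The autophagy genes gave 0.76 for Gabarapl2, 0.42 for Atg7, 0.38 for Wdr45, 0.36 for Atg16l1, -0.19 for Map1lc3b (adjusted p = 0.065 with a replicate block), -0.22 for Becn1 and -1.81 for Gabarapl1.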

How the results depend on the processing

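Of 3516 values of single members under the alternatives, 3366 kept their direction and side of the threshold, 103 (34 results, 20 members) fell short of it, 46 (14 results, 13 members) newly passed it and 1 reversed. That one was Tpp1 in TH1 effector against naive cells, at -0.15 (adjusted p = 0.038) without numbers 5 and 6 and 0.03 with all libraries. Of 799 values of the 35 other named genes, 9 fell short. With library size alone, the median of all genes moved to -0.14 in activated naive against naive and to -0.12 in reactivated TH1 against TH1 effector cells, and 1 member instead of 2 was at least 2-fold higher in the former. In the second run alone, 12 instead of 20 members were lower in TH1 effector against naive cells. Other calls that some alternatives ended or made include Ctsl, Becn1 and Wdr45 in TH1 effector against naive cells, and Wdr45 and Map1lc3b in the difference of responses. The cause was not tested. Leaving out 1 number at a time gave 12 to 13 members higher and 26 to 27 lower in activated naive against naive cells (2 to 3 and 15 to 17 by at least 2-fold), 15 to 17 and 18 to 21 in TH1 effector against naive cells (5 to 6 and 4), 12 to 15 and 23 to 24 in reactivated TH1 against TH1 effector cells (0 and 9 to 11), 18 to 21 and 14 in reactivated TH1 against activated naive cells (12 to 13 and 0), and 17 to 18 and 10 to 12 in the difference of responses (8 to 9 and 2). With a replicate block, 12 members were higher and 26 lower in activated naive, 17 and 21 in TH1 effector, and 14 and 24 in reactivated TH1 cells. The block changed 6 of 210 member calls: beside Atp6ap1 and Gabarapl2 in the report and Map1lc3b in the difference of responses (-0.19, adjusted p = 0.065), Tfe3 (0.16, adjusted p = 0.033) and Gabarapl2 (-0.19, adjusted p = 0.045) newly passed in TH1 effector against naive cells, and Map1lc3a (0.65, adjusted p = 0.024) in the difference of responses. The compared groups alone cannot give the difference of responses. Values below about 1 CPM, such as those of Wipi1 and of Lgmn in activated naive cells, rest on few counts.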

Other observations

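The lists of other pathway genes also differed between the 2 stimulated groups. In reactivated TH1 against activated naive cells, 43.4% of all genes tested were higher and 36.4% lower. Of 33 other lysosomal enzymes 19 were higher and 9 lower there. Of 9 sorting genes 7 were lower and 1 higher, and of 27 genes of mTORC1 and TFEB control 16 were lower and 3 higher. For the TH1 response minus the naive response, 15 of 24 other lysosomal membrane proteins were positive and 4 negative, and 2 of 9 sorting genes were positive and 6 negative. Over all 152 such genes tested, 67 were positive and 49 negative (44.1% and 32.2%, against 34.3% and 33.7% of all genes tested). Their median was 0.11 on the log2 scale. Most of the macrophage markers tested, but not all, were higher in reactivated TH1 cells, as given above. The part of macrophage RNA in these counts was not tested.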
